A study of Caenorhabditis elegans with 2 samples.

Results

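The 6 genes described here encode histone H3 lysine 4 demethylases of Caenorhabditis elegans, related enzymes and their corepressor partners: spr-5, lsd-1, amx-1, spr-1, hda-1 and rbr-2. They were taken by name from the Ensembl WBcel235 annotation, 6 of 19973 protein-coding genes, because the protein whose binding was mapped, ATHP-1, carries an AT-hook and a PHD finger and resembles a PHD finger partner of LSD1. Chromatin immunoprecipitation followed by sequencing (ChIP-seq) was done with an antibody against GFP. The whole animals were of strain OP685, with the allele unc-119(tm4063) and the integrated transgene wgIs685, which expresses ATHP-1 with a C-terminal GFP-FLAG tag. Animals of both sexes were collected together as young adults, 64 hours after synchronization as starved first-stage larvae. The 2 biological replicates form 1 group with nothing to set it against, so these genes are compared between the replicates and with all protein-coding genes. Whole animals mix all tissues, and binding in a few cells and weak binding in many cannot be told apart.

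Methyl groups on lysine 4 of histone H3 mark the starts of active genes and are removed by enzymes of 2 chemistries. LSD1 is a flavin-dependent amine oxidase that removes mono- and dimethylation. It works with CoREST, which anchors it to nucleosomes, and with class I histone deacetylases. Jumonji enzymes use iron and also remove trimethylation. In human cells the LSD1 complex holds a PHD finger protein, BHC80 (PHF21A), that binds unmethylated lysine 4. In worms the LSD1 homolog SPR-5 was found as a suppressor of presenilin mutants, and its loss makes the germ line fail over generations as this methylation builds up.

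Of the sites of these genes, 5 that lie upstream of gene starts are shown first, since the results return to them; sites inside the genes are described without their sequence. Each sequence reaches 50 bp to each side of a summit, the base of highest signal in a region, and was read from the forward strand of the RefSeq WBcel235 (ce11) assembly, 5′ to 3′. Capitals mark the words AATT, which AT-hook proteins are known to bind, and AAAAAA or its complement TTTTTT; both strands were searched, and overlapping matches were each counted. The first lies upstream of lsd-1 at chrX:11948320-11948420, the next at the main upstream site of rbr-2 at chrIV:10919324-10919424, and the next at a weak site nearer to the start of rbr-2, seen in replicate 1, at chrIV:10919835-10919935. The last ones lie upstream of spr-1 at chrV:8129878-8129978 and upstream of hda-1 at chrV:14524415-14524515.
lsd-1 upstream, replicate 2: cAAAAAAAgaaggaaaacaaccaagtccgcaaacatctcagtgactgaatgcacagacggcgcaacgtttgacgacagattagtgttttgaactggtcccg
rbr-2 upstream, pooled: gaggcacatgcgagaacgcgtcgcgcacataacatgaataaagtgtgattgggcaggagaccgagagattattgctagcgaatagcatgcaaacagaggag
rbr-2 near the start, replicate 1: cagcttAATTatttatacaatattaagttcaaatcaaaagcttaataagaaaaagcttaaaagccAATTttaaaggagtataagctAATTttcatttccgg
spr-1 upstream, pooled: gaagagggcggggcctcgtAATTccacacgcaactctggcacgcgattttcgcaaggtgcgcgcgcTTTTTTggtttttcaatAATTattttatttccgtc
hda-1 upstream, replicate 2: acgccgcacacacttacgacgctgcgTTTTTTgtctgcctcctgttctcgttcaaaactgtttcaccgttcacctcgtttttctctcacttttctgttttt
The main upstream site of rbr-2 holds neither word and is 50.5% A and T, whereas the weak site nearer to its start holds AATT 3 times and is 75.2% A and T. The spr-1 site holds AATT 2 times and TTTTTT 1 time at 51.5% A and T, with a longest unbroken run of A and T of 16 bases. The lsd-1 site has a run of 7 A, counted as 2 overlapping AAAAAA, and the hda-1 site has 1 TTTTTT. Both are 54.5% A and T and hold no AATT. Among windows of the same length at all 1649 reproducible summits, 56% hold AATT and 26.7% hold AAAAAA or TTTTTT. None of the 5 sites shown is a reproducible summit, and these shares were not computed for pooled or replicate summits. A match is a description of the letters and does not show that ATHP-1 contacts them.

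Of the 6 genes, 1 had a reproducible ATHP-1 summit, the LSD1 gene spr-5, and its peak stood near the foot of the list. The authors' reproducible list holds the peaks kept by an irreproducible discovery rate threshold. It held 1649 peaks with signal values from 105.6 to 1172 (median 142.9). The authors also deposited the regions that went into this threshold, 30000 for the pooled replicates and 30000 for each replicate, which by their file names contain background as well as peaks. Regions were ranked within each list by the authors' signal value, with rank 1 the strongest. The 1649 reproducible peaks were the 1649 strongest of the pooled list. Membership thus matched a pooled rank of 1649 or better and does not show a similar rank in each replicate. Read depth is unknown, so no interval from counting can be given.

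The promoter window of a gene began 1000 bp before any of its annotated 5′ ends and closed 500 bp after it. A reproducible summit lay in the window of 1 of the 6 genes, against 6.22% of all protein-coding genes. Counting summits inside the gene as well left the count at 1 of 6, against 7.75%. With 6 genes, a count of 1 is too small to set apart from the background share. In the pooled list, 4 of 6 had a window summit, against 43.6% of all genes, and 5 of 6 had one in the window or the gene, against 56.2%.

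The replicates differed in how many of these genes they listed. The replicate 1 list had a window summit at 2 of 6, spr-5 and rbr-2, against 44.6% of all genes. The replicate 2 list had one at 5 of 6, every gene but amx-1, against 45.6%. Both replicate lists had one at 2 of 6, spr-5 and rbr-2, against 32.4%. The gap between the replicates rests on lsd-1, spr-1 and hda-1.

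**Figure D1:**
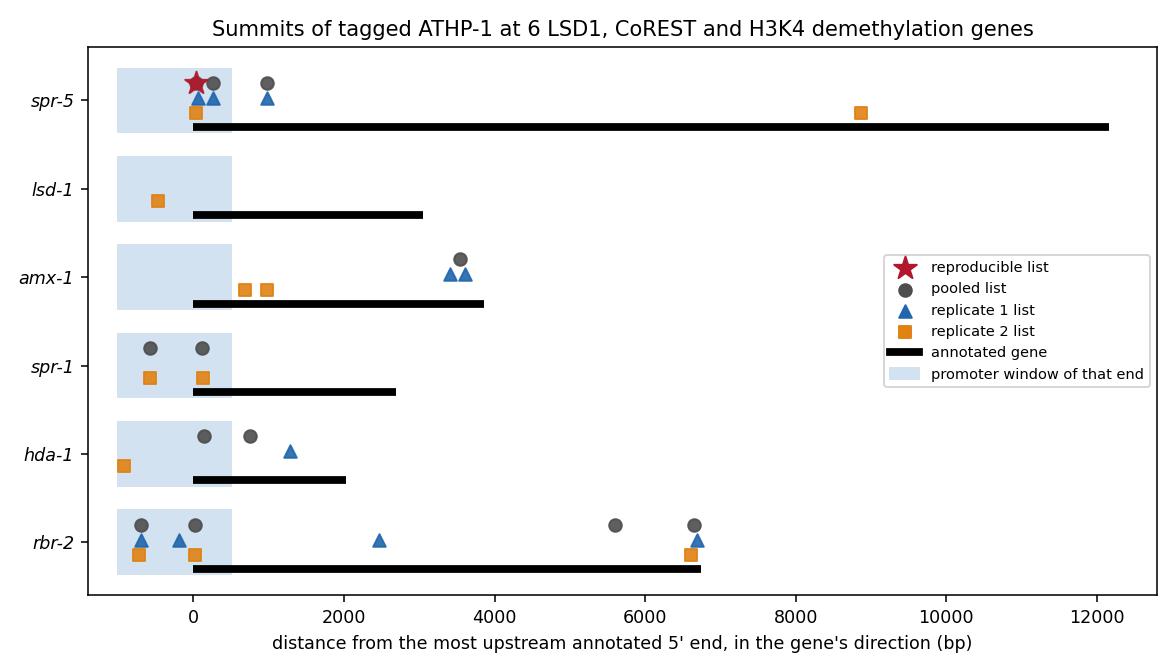
Summits of tagged ATHP-1 along the 6 genes, by distance in bp from the most upstream annotated 5′ end in the gene's direction. Symbols mark the reproducible, pooled and replicate lists, black bars the annotated genes and shaded boxes the promoter windows; 1 summit is reproducible, at the start of spr-5.

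spr-5 (WBGene00005010) lies on the forward strand from 13438058 to 13450218 (12161 bp, ce11). Its reproducible summit, at 13438090, was 24 bp downstream of the nearest of its 2 annotated 5′ ends, in a coding exon and past the first coding base at 13438068. The peak had a signal value of 106.8, rank 1601 of 1649, and a −log10 q of 3.03. In the replicate 1 list the nearest summit was 32 bp away, with a signal of 54.97 and rank 1595. In the replicate 2 list it was 1 bp away, with a signal of 49.18 and rank 2622. The site was thus placed within 32 bp in both replicates but would fall inside the 1649 strongest regions of replicate 1 only.

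The place of spr-5 among bound genes was low. Of 1243 genes with a reproducible window summit, 1212 had a higher best signal and 30 a lower one, and 48 reproducible peaks lay below it. The lowest reproducible signal was 105.6, and the strongest pooled region of the 6 genes outside the reproducible list, at rbr-2, had 84.18. Its ranks in the replicates differed by a ratio of 1.64. Over the 6479 genes with a window summit in both replicates, the median ratio was 1.91 and the upper quartile 3.12. The ratio of spr-5 was thus smaller than that of most of these genes.

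Further signal at spr-5 was weak and not shared by both replicates. A second summit in the window, in an intron 251 bp downstream, had pooled rank 13293 and rank 9306 in replicate 1, and the nearest replicate 2 summit was 228 bp away, at the main site. A summit in a coding exon 968 bp downstream had pooled rank 15265 and a partner 6 bp away in replicate 1 with rank 12394. Replicate 2 instead listed a region 8858 bp downstream with rank 21733.

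The gene upstream of spr-5 had the stronger promoter summit. eif-3.J, which encodes a subunit of translation initiation factor 3 and was named after its values were seen, lies on the same strand and ends 94 bp before spr-5 starts. Its own window had a reproducible summit of rank 560, with rank 473 in replicate 1 and rank 764 in replicate 2. The spr-5 peak spans from 13437880 to 13438299 and so covers the gap and the end of eif-3.J. Within this interval the annotated start of spr-5 and the 3′ end of eif-3.J cannot be told apart. The 5′ ends of spr-5 were used as annotated, and whether transcription starts there was not tested.

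The 3 genes whose replicate ranks were most like those of spr-5 were F41H10.3, tkt-1, a transketolase gene, and tcer-1, which encodes a transcription elongation factor. Likeness was the distance in log10 of the best window rank over the 2 replicates. F41H10.3 had ranks 1609 and 2537 in replicates 1 and 2 (distance 0.0148), tkt-1 1539 and 2584 (0.0168) and tcer-1 1597 and 2497 (0.0212). Their pooled ranks were 2028, 1883 and 1947, and none had a reproducible window summit. Genes with nearly the same ranks in the replicates as spr-5 thus fell outside the list that spr-5 entered. Their pooled ranks came after 1649, the last of that list.

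**Figure D2:**
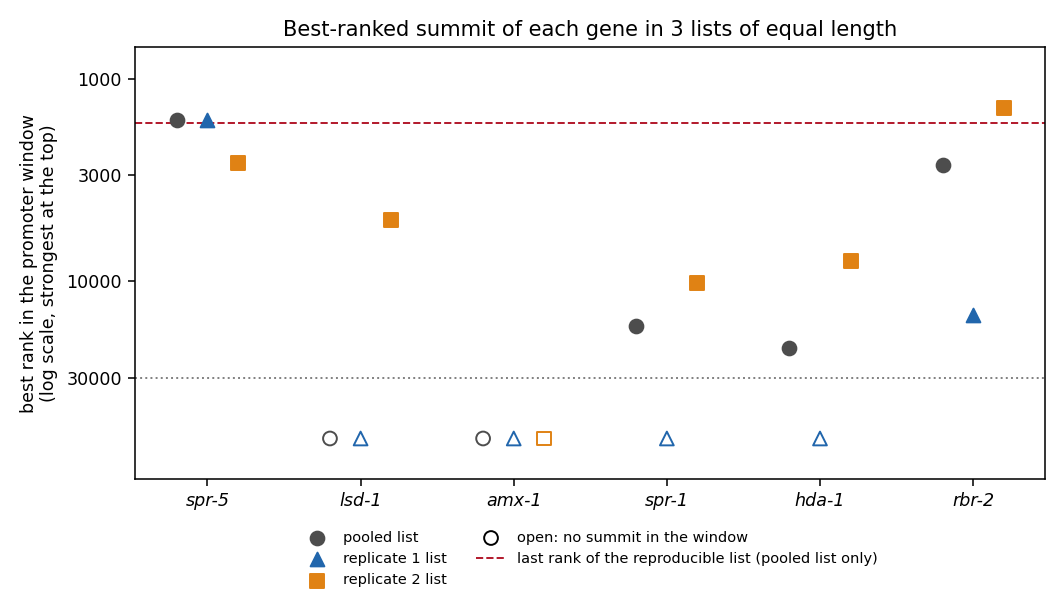
Best rank of a window summit of each gene in the pooled, replicate 1 and replicate 2 lists, on a log axis with the strongest at the top; open symbols mark genes with no window summit and the dashed line the last pooled rank of the reproducible list, 1649. spr-5 ranks 1601 in the pooled list, 1595 in replicate 1 and 2622 in replicate 2, rbr-2 ranks 1393 in replicate 2 and 14702 in replicate 1, and lsd-1, spr-1 and hda-1 have no window summit in replicate 1.

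lsd-1, the second LSD1-like gene (WBGene00011615), lies on the X chromosome from 11948844 to 11951893 (3050 bp, forward strand). It had 1 summit in all lists, in replicate 2 at 11948370, in intergenic sequence 474 bp upstream of its 5′ end, with a signal of 37.75, rank 4967 and a −log10 q of 1.18. The reproducible, pooled and replicate 1 lists held no summit in its window or in the gene. In replicate 2, 15% of all genes ranked at least as high, and 39.3% of the genes on X had a window summit. Of 416 genes within 500 ranks of lsd-1 in replicate 2, 84 (20.2%) also lacked a window summit in replicate 1. The neighbour upstream, nfya-1, runs the other way, and its gene lies 2005 bp from lsd-1. The window of nfya-1 had a summit of rank 3175 in replicate 2, better than the 4967 of lsd-1. The best window rank of nfya-1 was 26094 in replicate 1 and 10524 in the pooled list, and it had no reproducible one.

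amx-1 (WBGene00000137, chromosome III from 3822403 to 3826260, forward strand) encodes an amine oxidase related to LSD1 and was the gene with no window summit in any list. Its summits lay inside the gene and in different places. The pooled one was 3542 bp downstream of the start, in a coding exon, with a signal of 43.89 and rank 11587. Replicate 1 had summits 3411 and 3611 bp downstream, with ranks 11283 and 12392, and replicate 2 had summits 681 and 974 bp downstream, with ranks 23441 and 26212. The nearest replicate 2 summit was thus 2568 bp from the pooled one, against 69 bp for replicate 1.

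The 2 other amine oxidase genes taken as a list, amx-2 and amx-3, had no pooled or reproducible window summit. amx-3 had a replicate 2 summit of rank 13666. Of spr-5, lsd-1, amx-1, amx-2 and amx-3, spr-5 alone had a reproducible window summit, against 6.22% of all genes. With so few genes this cannot be set apart from the background share.

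rbr-2 (WBGene00004319) encodes the worm KDM5 enzyme, the Jumonji demethylase that removes trimethylation from lysine 4. It lies on chromosome IV from 10920070 to 10926817 (6748 bp, forward strand). Its main site, at 10919374, was 696 bp upstream of a 5′ end, in an exon of the noncoding RNA gene ZK593.14. In the pooled list it had a signal of 84.18, rank 2671 and a −log10 q of 2.5, below the last reproducible rank, and 9.31% of all genes ranked at least as high. In replicate 1 the summit was 4 bp away, with a signal of 23.41 and rank 14702. In replicate 2 it was 21 bp away, with a signal of 64.26 and rank 1393. The replicates placed the site within 21 bp of the pooled summit and differed in its strength. It was not the strongest region of rbr-2 in replicate 1: a summit in a coding exon 2462 bp downstream had a signal of 26.93 and rank 10516 there. The pooled list also had a weak summit in a coding exon 5594 bp downstream, with a signal of 25.81 and rank 28993.

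That difference was large beside those of other genes. The ranks of rbr-2 differed by a ratio of 10.6, against a median of 1.91 and a 90th percentile of 5.32 over 6479 genes. Among the 2497 genes with rank 3000 or better in 1 replicate and a window summit in both, the median ratio was 2.52 and the 90th percentile 8.39. Of these, 141 (5.65%) had a ratio as large as that of rbr-2, and 1800 (72.1%) one as large as that of spr-5. Genes with a window summit in only 1 replicate have no ratio, so neither set holds them. Each list ends at rank 30000, which caps the ratio for weaker genes in the larger set.

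Nearer to the start of rbr-2 the lists differed in place. The pooled and replicate 2 lists had a summit in the 5′ UTR, 20 and 21 bp downstream, with ranks 18582 and 17083, and replicate 1 had one 185 bp upstream with rank 26207. Toward the 3′ end all 3 lists had a summit, 6638 bp downstream in the pooled list (rank 15429), 6688 bp in replicate 1 (rank 14233) and 6609 bp in replicate 2 (rank 18884). dnc-1, which encodes a dynactin subunit and was named after its values were seen, overlaps this end of rbr-2 by 98 bp on the other strand. The promoter of dnc-1, at its far end, had a reproducible summit of rank 168.

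**Figure D3:**
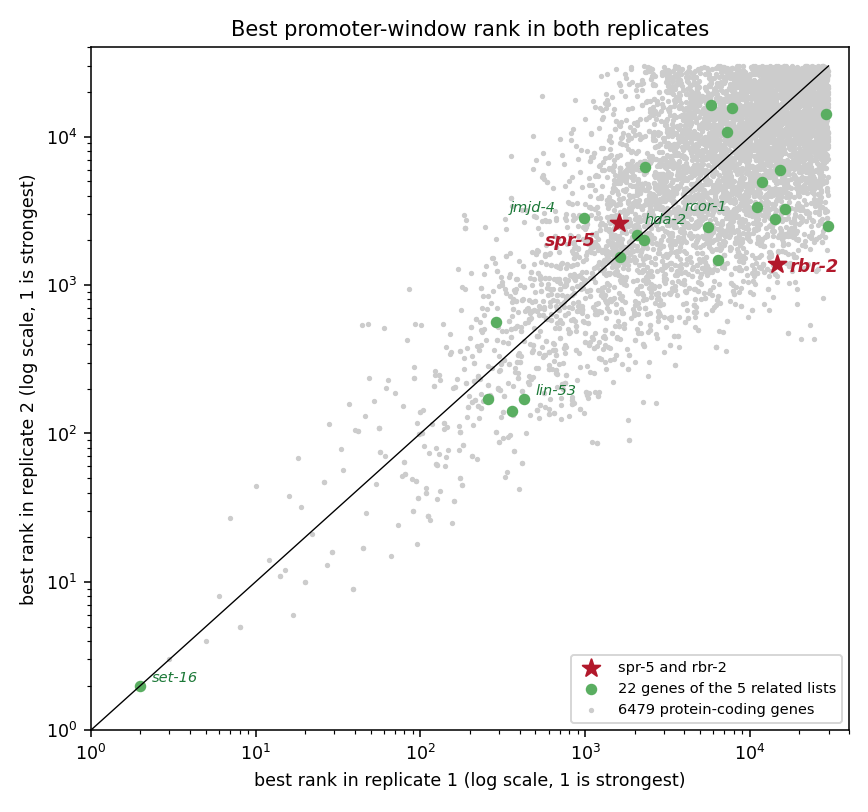
Best window rank in replicate 1 (x axis) and replicate 2 (y axis), both log axes with 1 the strongest, for spr-5 and rbr-2 (stars), 22 genes of the 5 related lists (green) and all 6479 genes with a window summit in both (grey). spr-5 lies near the line of equal ranks, and rbr-2 lies far below it, with rank 14702 in replicate 1 and 1393 in replicate 2.

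spr-1 (WBGene00005006, chromosome V from 8126663 to 8129352, reverse strand) encodes CoREST. Its pooled summits were in a coding exon 108 bp downstream of the start, with a signal of 36.57 and rank 16692, and in intergenic sequence 576 bp upstream, with a signal of 31.33 and rank 21857. Replicate 2 had the upstream summit at the same base with a signal of 27.94 and rank 10232, and a summit 127 bp downstream with a signal of 24.59 and rank 13685. Replicate 1 had none in the window, and its nearest summit lay 789 bp from the upstream one. Of 281 genes within 500 ranks of spr-1 in replicate 2, 82 (29.2%) also lacked a window summit in replicate 1. The upstream summit also lies in the window of snap-1, an alpha-SNAP gene on the other strand, 683 bp upstream of its 5′ end. The window of snap-1 had better best ranks than that of spr-1, 2012 in replicate 1 and 5566 in the pooled list. In replicate 2 the best summit of both windows was the shared one, of rank 10232.

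hda-1 (WBGene00001834, chromosome V from 14525389 to 14527411, forward strand) encodes a class I histone deacetylase. No 2 lists placed its summit at the same site. The pooled list had summits 137 and 755 bp downstream, both in coding exons, with signals of 31.78 and 30.59 and ranks 21383 and 22719. Replicate 1 had a summit 1280 bp downstream in an intron, with rank 26126, and replicate 2 had one 924 bp upstream with a signal of 31.1 and rank 7920. The replicate 2 summit lies in an exon of the noncoding RNA gene C53A5.18 and is closer to ril-1, 336 bp upstream of the 5′ end of that gene. Of 295 genes within 500 ranks of hda-1 in replicate 2, 74 (25.1%) also lacked a window summit in replicate 1. The pooled regions at spr-1 and hda-1 had −log10 q values of 0.251 or less, against at least 2.97 in the reproducible list.

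AT-hooks bind the minor groove of stretches rich in A and T. The summits taken for the 6 genes had between 50.5 and 62.4% A and T in 50 bp to each side. The share was 55.4% A and T at spr-5, 54.5% at lsd-1, 55.4% at amx-1, 62.4% at spr-1 (the summit in its coding exon), 57.4% at hda-1 (likewise) and 50.5% at rbr-2. The spr-5 summit is reproducible, that of lsd-1 is from replicate 2, and the other 4 are from the pooled list. In replicate 2, spr-1 and hda-1 had upstream summits of better rank (10232 and 7920), with 51.5% and 54.5% A and T. Windows of all reproducible summits had a median of 54.5% with quartiles of 47.5 and 61.4%. Windows of all 30000 pooled summits had a median of 58.4% with quartiles of 51.5 and 64.4%, so that spr-1, hda-1 and amx-1 lay within these quartiles and rbr-2 below the lower one. The 6 chromosomes as a whole are 64.6% A and T. The spr-1 window was matched or exceeded by 22.1% of reproducible windows and the rbr-2 window by 65.6%. The spr-5 window held AATT 1 time and AAAAAA or TTTTTT 1 time, with a longest unbroken run of A and T of 8 bases.

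Genes of related corepressor complexes, of lysine 4 methylation, of the Jumonji and amine oxidase families and with genetic links to spr-5 were taken as 5 lists, 38 genes in all, and 7 of 38 (18.4%) had a reproducible window summit, against 6.22% of all genes. Window summits in the pooled list were found at 27 of 38 (71.1%), against 43.6%. The lists were chosen with earlier results of these data known, so these shares are only described. The 7 genes ranked above spr-5, which stood below all of them.

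Among 8 genes that write lysine 4 methylation, 3 (37.5%) had a reproducible window summit, against 6.22% of all genes. set-16, the MLL-type methyltransferase gene, had signal 909.5 in the pooled list, 364.2 in replicate 1 and 550.1 in replicate 2, and rank 2 in each. ash-2, a subunit gene of the same kind of complex, had signal 243.6 and rank 186, and set-2, the SET1-type methyltransferase gene, had signal 183.6 and rank 415. Their summits lay 171, 93 and 225 bp upstream of the 5′ ends. Outside these, set-17 had a reproducible summit inside the gene but none in its window.

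Among 15 genes listed under deacetylase, CoREST, NuRD and SIN3 complexes, 2 (13.3%) had a reproducible window summit, against 6.22% of all genes. A pooled one was found at 14 (93.3%), against 43.6%. lin-53, a histone chaperone gene shared by several of these complexes, had signal 231.1 and rank 217, and mep-1, a zinc finger gene of a NuRD-type complex, had signal 109.9 and rank 1510. lin-40, an MTA-type NuRD gene, had a reproducible summit inside the gene only. hda-2, a deacetylase gene related to hda-1, missed the reproducible list with pooled rank 1704 and ranks 2065 and 2161 in replicates 1 and 2. rcor-1, the other CoREST gene, had pooled rank 3944, against 16692 for spr-1. spr-2, found in the same presenilin suppressor screens, had pooled rank 2078, with ranks 2291 and 2019 in the replicates. hda-2, rcor-1 and spr-2 were named after their values were seen.

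Among 9 other genes of the Jumonji family, 2 (22.2%) had a reproducible window summit, against 6.22% of all genes. These were jmjd-1.2, with signal 236.8 and ranks 360 and 142 in replicates 1 and 2, and jmjd-4, with signal 109.1 and rank 1523. In all, 3 of the 9 (33.3%) had a pooled window summit, against 43.6% of all genes. jmjd-1.2 encodes an enzyme that acts on lysines 9 and 27 of histone H3 and not on lysine 4. Of 4 genes linked to spr-5 in germ line memory, the methyltransferase genes met-2, mes-4, set-25 and set-30, 0 had a reproducible window summit. In the pooled list 3 had one, met-2 best with rank 2870. The shares of all genes were 6.22% and 43.6%. The lists hold genes named in earlier results of these data, and no test of the difference between lists was made.

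**Figure D4:**
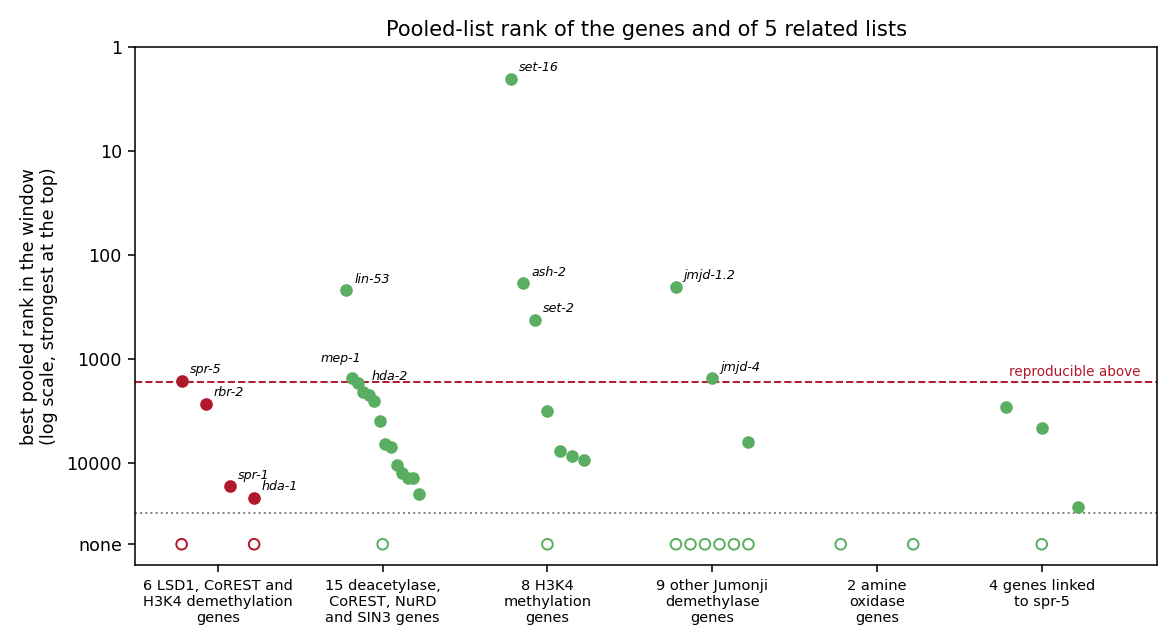
Best pooled rank of a window summit for the 6 genes (red) and for each of 5 related lists (green), on a log axis with the strongest at the top; open symbols are genes with no pooled window summit, and ranks above the dashed line, at 1649, are reproducible. spr-5 lies at the line, and set-16, at rank 2, is the strongest of the genes shown.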

How the data were processed

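ChIP-seq peak lists of 2 biological replicates of 1 group were used; per the deposited readme text each replicate list was made from 1 alignment with 1 control alignment, and the pooled list from both. No source used here names the aligner, the peak caller, the discovery rate threshold or the read depth. One label names the antibody by ATHP-1, while the description names GFP. The deposited signal score is the authors' own value relative to the control with no fixed range, and was used only to rank regions within a list. Each region's deposited −log10 q-value was only described. The summit is the start of a region plus the deposited offset. Coordinates are on ce11, written 1-based; the ce10 lists were not used.

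Genes came from Ensembl release 115 on WBcel235, protein-coding on chromosomes I to V and X, with 29314 annotated 5′ ends; sequence came from the RefSeq assembly of that build. A gene took its best-ranked summit. No test was made, since there is 1 group and no second condition. Alternatives were narrower windows, peak overlap, nearest 5′ ends only, stronger peaks, each replicate alone and other sequence windows. The members and lists were chosen with earlier results of these data known. Named are the 6 genes, list genes with a reproducible window summit, genes sharing a window and the 3 genes most like spr-5. Others are marked, or, for amx-2, amx-3, set-17, lin-40, met-2, nfya-1 and the noncoding genes, were likewise named after their values were seen. The window assignment was tested on simulated data. Calculations used Python 3.11.15, numpy 2.4.6 and pandas 2.3.3, and figures matplotlib 3.10.9.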

Additional observations from a re-analysis of the deposited data

How the results depend on the processing

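The count of 1 of 6 genes with a reproducible window summit, and with one in the window or the gene, was 0 for both with the stronger 50% of the reproducible peaks, since spr-5 ranks 1601. As many strongest regions of 1 replicate alone gave 1 in each case, spr-5 without replicate 2 but rbr-2 without replicate 1, so the gene called depends on the replicate. The count with a window summit in both replicate lists, 2, was 1 (spr-5) with the 10000 or the 5000 strongest regions of each. The share of all genes with a summit in both lists, 32.4%, was computed at the main setting only. The count of 1 therefore has no background share beside it. Narrower windows gave the same counts, but the main site of rbr-2 lies outside them: there rbr-2 was counted from separate weak summits, 185 bp upstream in replicate 1 (rank 26207) and 21 bp downstream in replicate 2 (rank 17083). The share of all protein-coding genes with a reproducible window summit, 6.22%, was 4.71% from 500 bp upstream to 200 bp downstream, 2.6% within 200 bp to each side, 6.81% by overlap of the peak, 4.71% with each summit given only to the nearest 5′ end, 3.49% with the stronger peaks, and 5.79 to 6.53% when 1 replicate was left out. The pooled rank of rbr-2, 2671, was 18582 in the window from 500 bp upstream, which its main site lies outside. The other pooled ranks did not move. A and T shares over shorter and longer windows stayed within the exact binomial 95% interval of the main share. That interval is wide and the windows overlap the main one, so this cannot show that the shares are stable. The rbr-2 share, 50.5%, was 58.8% in the shorter window and 51.7% in the longer one. The spr-5 share, 55.4%, was 49% and 60.7%, and that of lsd-1, 54.5%, was 47.1% and 56.2%. The place of rbr-2 below the pooled lower quartile was read at the main window length only. No paired analysis was possible because there is 1 group. Depth is unknown, so absence from a list does not show absence of binding.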
